A study of Homo sapiens with 12 samples.

Results

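Glycerol channels, glycerol kinases and glycerol 3-phosphate dehydrogenases were examined as 9 genes: the channels AQP3, AQP7, AQP9 and AQP10, the kinases GK and GK5, and the dehydrogenases GPD1, GPD1L and GPD2. They are picked out by gene symbol, and the set was chosen with earlier results of these data known. All 9 are among the 19677 genes of the count tables, and 7 of the 9 had counts enough to be tested. The cells were CAOV3, an established human cell line labelled as high-grade serous ovarian epithelium with genotype WT. Control cells received DMSO, the ascites group received 10% ovarian cancer ascites and DMSO, the bezafibrate group received 200 uM bezafibrate, and the combination group received bezafibrate and ascites at those doses, with 3 libraries in each group. The labels give 16 hours for the 3 treated groups and no time for the control libraries. DMSO is named only for the groups without the drug, so the drug and any difference in solvent cannot be told apart. The labels do not say whether replicates came from separate cultures or whether the ascites came from more than 1 source, and p-values therefore measure the spread between these libraries. All libraries come from 1 cell line.

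Glycerol crosses membranes through aquaglyceroporins, the branch of the aquaporin family that conducts glycerol as well as water. AQP3 is found in many epithelia, AQP7 is best known from fat cells, where it lets glycerol out during lipolysis, AQP9 from liver and white blood cells, and AQP10 from the gut. Inside the cell, glycerol kinase uses ATP to make glycerol 3-phosphate, the backbone of triglycerides and phospholipids. Cytosolic GPD1 interconverts dihydroxyacetone phosphate and glycerol 3-phosphate, and mitochondrial GPD2 oxidises glycerol 3-phosphate and passes the electrons to the respiratory chain. Bezafibrate is a fibrate that activates the PPAR nuclear receptors, and AQP7 is known as a PPAR-responsive gene in fat cells.

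Total counts ranged from 11831093 to 18762759 per library. Levels are in CPM, counts relative to library size after TMM scaling, and differences are log2 fold changes. Calls rest on edgeR's quasi-likelihood test with Benjamini-Hochberg adjustment over all 12470 tested genes, at an adjusted p under 0.05. The second principal component set combination replicate 3 apart, at -22.4, with the other 11 libraries between -4.37 and 9.84. Of 11 markers of serous ovarian carcinoma, KRT7, KRT8, KRT18, KRT19 and EPCAM had means from 30.2 to 3030 CPM, PAX8 had a mean of 0.676 CPM, SOX17 was at 0, and WT1, MUC16, WFDC2 and MSLN were too low to be tested. The cells were thus epithelial by keratins, with several serous lineage markers absent or near 0. Of genes known to respond to PPAR activation, PDK4, a kinase that restrains pyruvate oxidation, had an averaged log2 fold change with bezafibrate of 4.07, the fatty acid binding protein gene FABP4 of 3.73 and the lipase inhibitor gene ANGPTL4 of 3.63, all called higher.

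In the libraries with bezafibrate, the channel transcripts AQP3 and AQP7 were nearly 4-fold higher, GPD1L about 1.3-fold and GPD2 about 1.1-fold. No change of GK, GK5 or GPD1 was called. Ascites changed none of the tested genes by this test, with or without the drug. In bulk RNA, a change in the share of cells with a transcript and a change in RNA per cell cannot be told apart. Without ascites, 4 of the 7 tested genes were called higher and 0 lower. The background was 10.1% of all tested genes called higher, 7.55% called lower and 17.6% called in either direction. With ascites present, the combination against ascites also called 4 higher and 0 lower, against 10.5% higher, 7.29% lower and 17.8% in either direction. Averaged over ascites, 6 libraries with the drug against 6 without, 4 were called higher, against 15% higher, 13.2% lower and 28.3% in either direction. The median log2 fold change of the 7 tested genes in that averaged contrast was 0.19, beside -0.0047 for all genes tested. Leaving out combination replicate 3 gave 5 called genes without ascites, 4 with it and 4 on average.

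**Figure D1:**
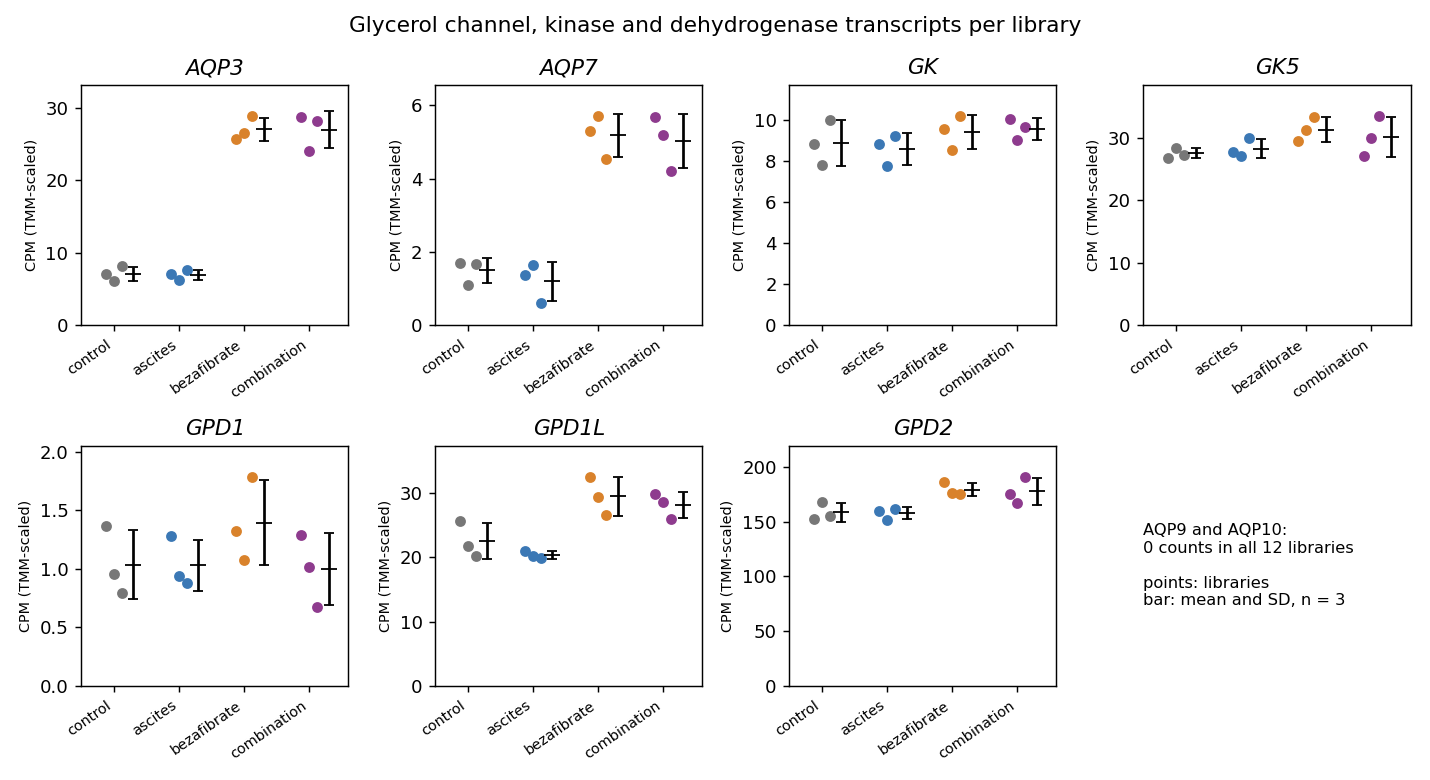
Levels of the 7 detected genes in each library, in CPM on linear axes that start at 0, by group, with the mean and SD of 3 libraries beside the points. All 6 libraries with bezafibrate lie above all 6 without it for AQP3, AQP7 and GPD1L, while the points of GK, GK5, GPD1 and GPD2 overlap.

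AQP3 (ENSG00000165272.16), the epithelial glycerol and water channel, is annotated at chr9:33441154-33447633 on the minus strand (GRCh38, GENCODE 29). Its level in the control libraries was 7.02, 6.10 and 8.09 CPM, and in the ascites libraries 7.05, 6.25 and 7.61 CPM. In the bezafibrate libraries it was 25.7, 26.5 and 28.9 CPM, and in the combination libraries 28.7, 24.1 and 28.2 CPM. Every library with the drug was high and every library without it was low, and the lowest value with the drug, 24.1 CPM, was far above the highest without it, 8.09 CPM. The log2 fold change was 1.94 (SE 0.10, edgeR adjusted p 5.47e-18) for bezafibrate against control and 1.95 (SE 0.102, edgeR adjusted p 7.82e-18) for the combination against ascites. Averaged over ascites, AQP3 was 3.85-fold higher, with a 95% interval from 3.48 to 4.26. Among all tested genes, 34 had a larger log2 fold change in that averaged contrast.

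AQP7 (ENSG00000165269.13), the fat cell glycerol channel, is annotated at chr9:33383179-33402682, also on the minus strand. It was rare in untreated cells, with 25, 15 and 21 counts in the control libraries, or 1.70, 1.10 and 1.67 CPM. The ascites libraries held 1.35, 1.64 and 0.606 CPM, the last from 9 counts. With bezafibrate the level was 5.31, 5.70 and 4.53 CPM, and with the combination 5.69, 5.18 and 4.22 CPM. The groups with and without the drug did not overlap, and ascites replicate 3 was the lowest library. The log2 fold change was 1.80 (SE 0.225, edgeR adjusted p 5.92e-08) without ascites and 2.10 (SE 0.242, edgeR adjusted p 9.57e-09) with it. The averaged rise was 3.86-fold, with a wider 95% interval than for AQP3, from 3.06 to 4.87. AQP7 has pseudogene copies, and 7.90% of the 50-base stretches of its transcripts also occur in transcripts of other genes, most often AQP7P1. Its counts are uncertain for that reason, by an amount that this share does not measure. AQP3 shares 0% of such stretches.

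Bezafibrate is known to activate PPARs, receptors that bind known letters, and their action in these cells was not tested. The 250 bases before the starts of AQP3 and AQP7 are shown because both genes rose together and lie side by side. They were searched for the letters that PPARs bind, among others. They are from RefSeq on GRCh38.p14, read 5′ to 3′ on the minus strand, at chr9:33447594-33447843 for AQP3 and chr9:33402569-33402818 for AQP7. Both RefSeq starts lie inside the longer GENCODE gene models, so the end of each window next to the start overlaps its model. The overlap is chr9:33447594-33447633 for AQP3 and chr9:33402569-33402682 for AQP7. Capitals mark a different motif in each window, 1 that the window contains. They mark GGGCGG, the GC box, in AQP3, which held 0 copies of the nuclear receptor half-site AGGTCA. In AQP7 they mark that half-site, and both copies read as TGACCT on the strand shown.
AQP3: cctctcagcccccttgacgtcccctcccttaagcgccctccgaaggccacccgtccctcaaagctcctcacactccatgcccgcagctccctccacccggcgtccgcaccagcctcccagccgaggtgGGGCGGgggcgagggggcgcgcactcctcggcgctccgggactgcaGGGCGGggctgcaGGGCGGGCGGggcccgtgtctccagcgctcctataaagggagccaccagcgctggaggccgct
AQP7: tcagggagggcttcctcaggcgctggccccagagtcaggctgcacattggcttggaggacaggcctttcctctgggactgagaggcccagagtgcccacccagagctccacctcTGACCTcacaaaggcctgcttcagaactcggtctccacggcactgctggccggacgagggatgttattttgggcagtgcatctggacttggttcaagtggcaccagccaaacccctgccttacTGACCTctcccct
RefSeq promoter entries were matched for 7 of the 9 genes, with 9 entries in all, and 3 motifs were searched on both strands. The full PPAR element was searched only in 1 exact spelling, AGGTCANAGGTCA, without mismatches. That spelling was in none of the 9 entries (0 matches) and in 0.0171% of the 35116 promoter windows of the same length. At so small a share, no match in 9 entries was likely from the start. Elements with mismatches were not searched, so their presence in these windows is not known. The half-site AGGTCA, which also occurs inside the full element, was present 2 times in AQP7 and 0 times in every other entry, against 12.1% of all windows with at least 1. Of the 2 AQP7 copies, the 1 nearer the RefSeq start lies inside the GENCODE gene model. GGGCGG was present 4 times in AQP3, 2 of them overlapping, and 0 times in AQP7, against 42.6% of all windows. It was also present 3 times in GK, 4 times in GPD1L and 4 times in 1 of the 2 GPD2 entries. The 2 windows also differed in base composition, with 73.6% G or C for AQP3 and 60.8% for AQP7. A match describes the letters in this window and is no sign of binding.

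AQP3 and AQP7 are neighbours: their annotated starts lie 45.0 kb apart and no other gene of the count tables starts between them. This comparison was chosen after the values were seen. Within 500 kb of the AQP3 start, 11 other genes were tested, and their averaged log2 fold changes with bezafibrate ran from -0.22 to 0.33. Of these, 6 were called higher and 0 lower, beside 15% of all tested genes called higher. The nearest, NOL6, which acts in ribosome assembly and starts 26.3 kb from AQP3, differed by 0.09 on the log2 scale (edgeR adjusted p 0.0171). B4GALT1, a galactosyltransferase gene, had the highest value of the 11, at 0.33. AQP3 and AQP7, each near 1.95, were the only tested genes of the window above 0.33.

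**Figure D2:**
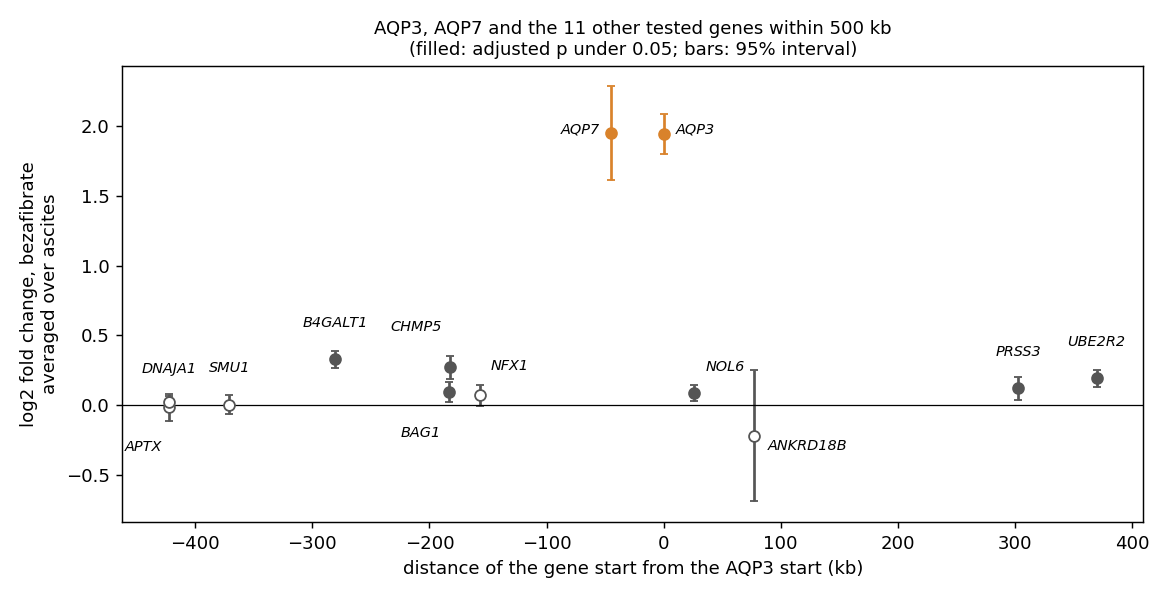
Averaged log2 fold change with bezafibrate, with its 95% interval, against the distance in kb of each gene's start from the AQP3 start. AQP3 and AQP7 sit near 1.95, and the 11 other tested genes of the window lie between -0.22 and 0.33.

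AQP9 (ENSG00000103569.10), annotated at chr15:58138169-58185911 on the plus strand, and AQP10 (ENSG00000143595.13), at chr1:154321090-154325325 on the plus strand, had no counts. Both were at 0 counts in all 12 libraries, which over 173137426 counts allows up to 0.0173 CPM each, for counting error only. Of their 50-base stretches, 8.02% for AQP9 and 5.78% for AQP10 also occur in transcripts of other genes. Counts there depend on how reads were assigned. Of these 4 channels, AQP3 and AQP7 had counts in every library. Of the 10 other aquaporin family genes, 2 were tested, AQP5, a water channel, and AQP11, an intracellular member of the family. AQP11, named after its values were seen, was at 1.61 ± 0.204 CPM in control and 1.65 ± 0.353 CPM in bezafibrate (SD, n = 3). In ascites it was at 1.46 ± 0.158 CPM and in the combination at 1.94 ± 0.674 CPM. The averaged log2 fold changes of the 2 tested genes with the drug were -0.36 and 0.20. By edgeR 0 of these 2 were called with the drug averaged over ascites, with 0 at an unadjusted p under 0.05 and 0 by DESeq2.

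GK (ENSG00000198814.14), which encodes the main glycerol kinase, is annotated at chrX:30653359-30731456 on the plus strand. It was at 8.80, 7.79 and 9.99 CPM in control, 8.83, 7.73 and 9.23 CPM in ascites, 9.53, 8.50 and 10.2 CPM in bezafibrate, and 10.0, 9.0 and 9.63 CPM in the combination. The 4 groups overlapped throughout. The averaged drug contrast gave a log2 fold change of 0.12 with a 95% interval from -0.05 to 0.29 (edgeR adjusted p 0.33), so a rise of the size seen for AQP3 lies outside the interval. GK is uncertain because 25.5% of the 50-base stretches of its transcripts also occur in transcripts of other genes, and the exons of GK also overlap those of the antisense gene GK-AS1 over 1.38% of their length. The related kinase genes GK2, with 0 counts in each group, and GK3 (listed as GK3P), with 2 to 5 counts per group, were too low to be tested.

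GK5 (ENSG00000175066.16), a further member of the kinase family, is annotated at chr3:142157527-142225607 on the minus strand. Its level was 26.9, 28.4 and 27.4 CPM in control and 27.8, 27.1 and 30.1 CPM in ascites. It was 29.5, 31.3 and 33.4 CPM in bezafibrate and 27.1, 30.0 and 33.5 CPM in the combination. The bezafibrate libraries lay above the highest control library, 28.4 CPM, whereas the combination and ascites libraries overlapped. The averaged log2 fold change was 0.13 with a 95% interval from 0.03 to 0.24, and its edgeR adjusted p of 0.05002 was just above the threshold, so it was not called. For bezafibrate against control it was 0.19 (edgeR adjusted p 0.0667). The GK5 call changed under other settings for bezafibrate against control and for the averaged contrast. The averaged contrast was called in 6 of 19 alternatives, with an adjusted p from 0.0081 without combination replicate 1 to 0.172.

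GPD1 (ENSG00000167588.13), the cytosolic dehydrogenase that is abundant in fat and muscle, is annotated at chr12:50103819-50111319 on the plus strand. It was barely expressed, with 8 to 26 counts per library. Its level was 1.36, 0.955 and 0.793 CPM in control and 1.282, 0.937 and 0.875 CPM in ascites. It was 1.33, 1.08 and 1.79 CPM in bezafibrate and 1.29, 1.02 and 0.675 CPM in the combination, and all groups overlapped. The averaged drug contrast had a 95% interval from -0.29 to 0.67 around 0.19 (edgeR adjusted p 0.616), and changes within that interval are not excluded. Leaving out 1 library at a time moved this value between 0.05 and 0.32.

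GPD1L (ENSG00000152642.11), a close relative of GPD1, is annotated at chr3:32105689-32168713 on the plus strand. It was at 25.6, 21.8 and 20.2 CPM in control and 21, 20.1 and 19.9 CPM in ascites. With bezafibrate it was at 32.5, 29.4 and 26.5 CPM, and with the combination at 29.9, 28.5 and 26 CPM. The lowest library with the drug, at 26 CPM, was just above the highest without it, at 25.6 CPM. The log2 fold change was 0.38 (SE 0.080, edgeR adjusted p 0.00045) without ascites and 0.47 (SE 0.084, edgeR adjusted p 4.85e-05) with it. The averaged rise was 1.35-fold, with a 95% interval from 1.24 to 1.46.

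GPD2 (ENSG00000115159.16), the mitochondrial dehydrogenase, is annotated at chr2:156435290-156613735 on the plus strand. It was at 152.2, 167.9 and 155.1 CPM in control and 159.4, 151.3 and 161.8 CPM in ascites. It was at 185.8, 175.8 and 175.4 CPM in bezafibrate and 174.8, 167.1 and 190.7 CPM in the combination. Combination replicate 2, at 167.1 CPM, overlapped the highest control library, and the other 5 libraries with the drug lay above all 6 without it. The log2 fold change was 0.18 (SE 0.043, edgeR adjusted p 0.0028) without ascites and 0.17 (SE 0.044, edgeR adjusted p 0.00448) with it, an averaged rise of 1.13-fold (95% interval 1.08 to 1.18).

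**Figure D3:**
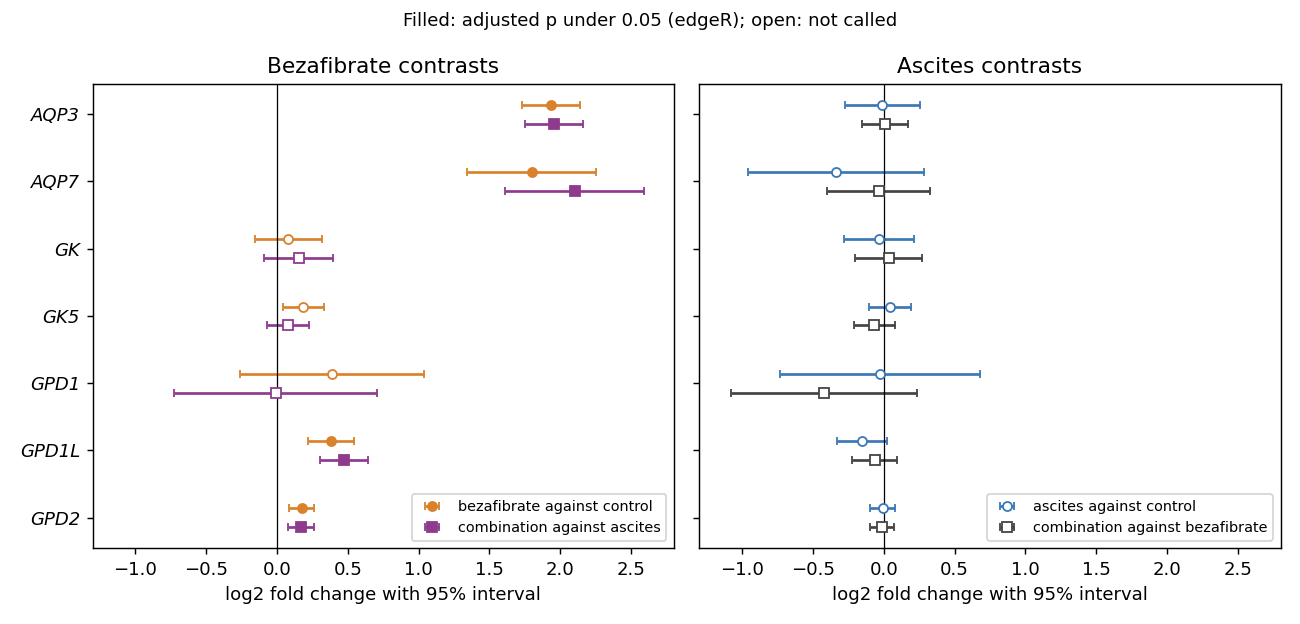
Log2 fold change with its 95% interval for each tested gene in the 2 bezafibrate contrasts (left) and the 2 ascites contrasts (right), with filled symbols for called genes. AQP3 and AQP7 stand near 2 with the drug, GPD1L and GPD2 between 0.17 and 0.47, and no symbol is filled on the ascites side.

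To compare levels between genes, CPM were divided by the merged exon length in GENCODE 29, which may differ from the annotation behind the counts. In control cells GPD2 was highest, at 22.1 ± 1.17 CPM per kb (SD, n = 3), followed by GPD1L at 4.70 ± 0.578, AQP3 at 2.40 ± 0.338, GK5 at 2.27 ± 0.066 and GK at 1.65 ± 0.206 CPM per kb. AQP7, at 0.284 ± 0.0642, and GPD1, at 0.260 ± 0.0737 CPM per kb, were lowest. The libraries of AQP3 and GK5 overlapped, as did those of AQP7 and GPD1, and the other neighbours in this order did not. With bezafibrate, AQP3 stood at 9.17 ± 0.550 CPM per kb, above GPD1L at 6.14 ± 0.622, with no overlap between their libraries. AQP7 stood at 0.986 ± 0.113 CPM per kb, and remained below GK at 1.75 ± 0.157 CPM per kb.

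The ascites contrasts asked what the fluid changed in these genes. For ascites against control edgeR called 0 of the 7 tested genes, against a background of 0.0882%, and for the combination against bezafibrate 0 of 7, against 0.128%. Averaged over bezafibrate the count was also 0 of 7, against 0.281%. In each of these contrasts 0 of the 7 had an unadjusted p under 0.05 and 0 were called by DESeq2. The averaged log2 fold changes ran from -0.22 for GPD1 to near 0 for GK (-0.0002). For AQP3 the averaged value was -0.0014 with a 95% interval from -0.16 to 0.15, and for AQP7 it was -0.19 with an interval from -0.55 to 0.17. GPD1L had the lowest unadjusted p of the 7, at 0.071, for a log2 difference of -0.11 (edgeR adjusted p 0.747). Changes inside these intervals are not excluded, and AQP7 and GPD1, the tested genes with the fewest counts, had the widest ones. Leaving out 1 library at a time moved the averaged ascites value between -0.33 and -0.02 for AQP7 and between -0.36 and -0.09 for GPD1.

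The interaction asked whether the drug's change differed when ascites was present. By edgeR 0 of the 7 genes were called, against a background of 0%, with 0 at an unadjusted p under 0.05 and 0 by DESeq2. For AQP3 the drug's log2 fold change was 0.02 larger with ascites (95% interval -0.29 to 0.33). For AQP7 it was 0.30 larger, with an interval from -0.42 to 1.02, and without ascites replicate 3 it was -0.04. GPD1L had 0.09 (-0.15 to 0.33) and GPD2 had -0.0055 (-0.13 to 0.12). The combination against control, which shares its control libraries with the contrasts above, gave 1.94 for AQP3, 1.76 for AQP7, 0.32 for GPD1L and 0.16 for GPD2, all called higher. Those 4 of the 7 tested genes stood against 10.3% of all tested genes called higher, 7.96% lower and 18.2% in either direction. Without control replicate 3 GPD1L was not called (0.25, edgeR adjusted p 0.0574), and without control replicate 1 GPD2 was not (0.14, edgeR adjusted p 0.0585).

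Other steps of glycerol metabolism were read from lists written from general knowledge, in the drug contrast averaged over ascites. Of 7 genes for glycerol release by lipolysis, 5 were tested, and 4 rose and 0 fell, with a median of 0.34. MGLL, which encodes the lipase for the last step that frees glycerol, rose by 0.40 (SE 0.026, edgeR adjusted p 1.88e-15), ABHD6 by 0.39 and LIPE, hormone-sensitive lipase, by 0.34. Of 15 genes for the use of glycerol 3-phosphate and the later steps of glycerolipid synthesis, 14 were tested, 6 rose and 0 fell, and the median was 0.04. AGPAT2, an acyltransferase that turns lysophosphatidic into phosphatidic acid, rose by 0.74, GPAT3, which adds the first acyl chain to glycerol 3-phosphate, by 0.34, and LPIN2, a phosphatidate phosphatase, by 0.19. These counts compare with 15% of all tested genes called higher, and with a median of -0.0047 over all genes.

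Of 7 genes for triose phosphates and glyceroneogenesis, which makes glycerol 3-phosphate without glycerol, 6 were tested, 2 rose and 0 fell, with a median of 0.02. PCK1, the cytosolic phosphoenolpyruvate carboxykinase, went from 4.45 ± 0.117 CPM in control to 14.1 ± 1.05 CPM with bezafibrate (SD, n = 3). Its averaged log2 fold change was 1.87 (SE 0.097, edgeR adjusted p 1.99e-18), close in size to those of AQP3 and AQP7, and its mitochondrial form PCK2 rose by 0.17. Of the 7 genes of the malate-aspartate shuttle, the other route for cytosolic NADH into mitochondria, all 7 were tested and 1 rose, GOT1 by 0.31, with a median of 0.02. Over all tested genes 15% were called higher in this contrast, and 1 of 7 is near that share. With ascites averaged over the drug, 1 gene of these 4 lists was called, LPIN1, a relative of LPIN2, lower at -0.22 (edgeR adjusted p 0.00645). The background there was 0.281% of all tested genes called in either direction.

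**Figure D4:**
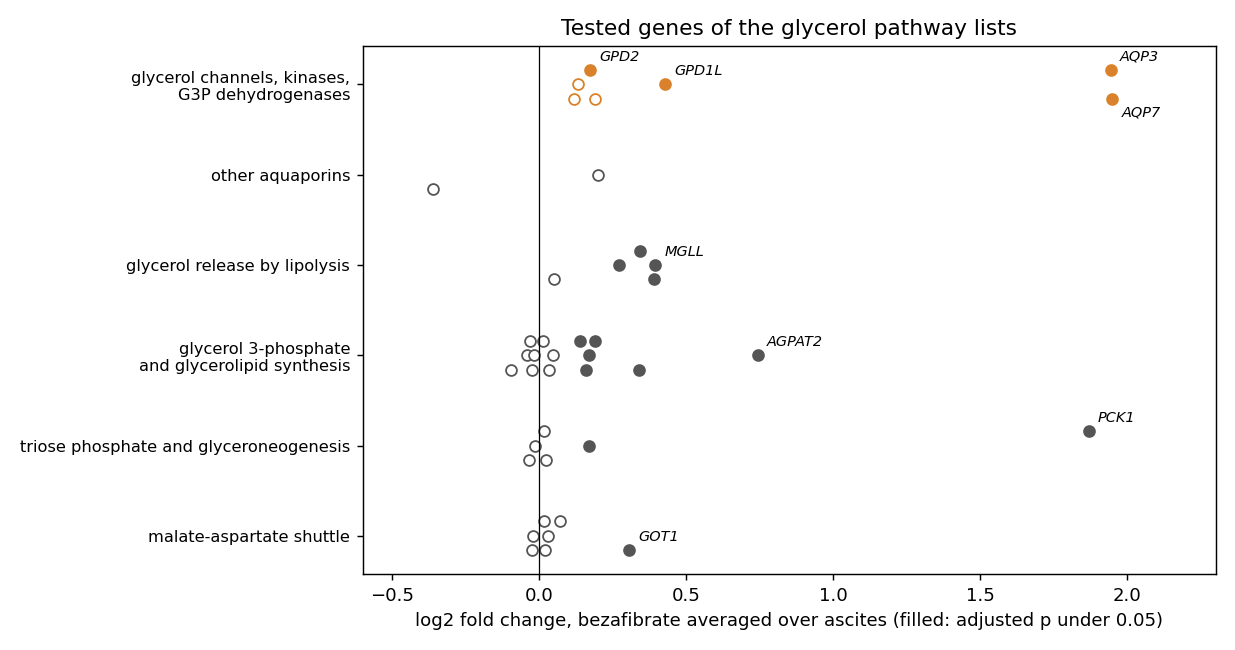
Averaged log2 fold change with bezafibrate for each tested gene of the lists, with filled points for called genes. AQP3, AQP7 and PCK1 lie near 1.9, AGPAT2 at 0.74, and most genes of the malate-aspartate and triose phosphate lists lie near 0.

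AQP7 and GPD1 are markers of fat cells, and AQP9 of white blood cells, so markers of other cells were read beside them. The summed level of 7 adipocyte markers was 80.0 to 83.8 CPM in control, 83.2 to 88.5 CPM in ascites, 807 to 846.8 CPM in bezafibrate and 882 to 970.7 CPM in the combination. ADIPOQ and CIDEA were at 0 in all libraries, LEP had 1 count and PLIN1 had 17 counts in all. The 3 tested markers, FABP4, CIDEC and LIPE, were each called higher with the drug averaged over ascites, beside 15% of all tested genes. FABP4 is also known to respond to PPAR activation. FABP4 made up most of the sum, with a mean of 61.6 CPM in control and 794.9 CPM in bezafibrate. Of 9 leukocyte markers, 7 were at 0 in all libraries, and their sum was between 2.16 and 4.93 CPM. The sum of 8 red cell and platelet markers was between 0.543 and 1.41 CPM, with 4 markers at 0. Sums of 6 fibroblast markers were 231.3 to 243.7 CPM in control and 186.7 to 199.3 CPM with bezafibrate. All 4 tested fibroblast markers were called lower with the drug averaged over ascites, beside 13.2% of all tested genes. Most of that sum was LUM, with means of 183.9 CPM in control and 164 CPM in bezafibrate, and PDGFRA, with 43.2 and 21.6 CPM. The fibroblast markers COL1A2 and DCN were nearly absent, with 2 and 3 counts in all. Mesothelial markers summed to between 1.99 and 4.25 CPM, and hepatocyte markers to between 1.69 and 3.42 CPM. The part of these cell types' markers in the results was not tested.

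The genes whose pattern was most like those of the 2 channels were found from log2 CPM centred on each gene's mean over the 12 libraries, among 11858 genes, as the smallest root mean square difference. For AQP3 these were CREB3L3, an endoplasmic reticulum-bound transcription factor of liver and gut (0.114), FABP3, a fatty acid binding protein (0.139), and SLC38A4, an amino acid transporter (0.144). For AQP7 they were HYAL4, a hyaluronidase family gene (0.297), IHH, a hedgehog ligand (0.310), and HR, a nuclear receptor corepressor (0.326). The difference between AQP3 and AQP7 themselves was 0.384. AQP7 was 43rd in likeness to AQP3 and AQP3 was 15th in likeness to AQP7. AQP7 had between 9 and 106 counts per library, and counting error adds to its difference from every gene.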

How the data were processed

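RNA of 12 CAOV3 libraries was sequenced, 3 per group, with groups and replicate numbers from the titles. The authors deposited whole-number counts per gene, 1 table per library. The submitters' processing notes name Trimmomatic 0.39, STAR 2.7.9a, RSEM 1.3.3, DESeq2 1.28.1 and GRCh38, without roles. The annotation release and strandedness are not given in the sources used here, and RSEM estimates may have been rounded. Where genes share sequence, the counts depend on that step.

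From the counts, genes were kept with filterByExpr (minimum count 10, minimum total 15), which left 12470 of 19677 and 99.96% of counts. TMM scaling and the quasi-likelihood test of edgeR 4.0.16 (R 4.3.3, robust) were applied to all 12 libraries with 1 mean per group. Standard errors are the absolute log2 fold change over the square root of F, with 95% intervals from the same fit. Calls used adjusted p under 0.05. The scripts were tested on simulated data. Replicates differed beyond counting error (chi-square per degree of freedom 1.44 to 4.45).

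All 9 genes are named in the report. In the other lists up to 3 called genes with the largest change at 1 CPM or more are named, and for genes with a change of at least 0.5 the 3 nearest patterns (prior count 2). The genes and lists were chosen with earlier results of these data known. Gene positions and lengths are from GENCODE 29 (GRCh38), and promoters from RefSeq (GRCh38.p14). Alternatives were RLE and upper-quartile scaling, DESeq2 1.42.0, 2 other filters, fits of only the groups compared, a replicate block, a threshold of 0.01 and leaving out each library, and for the CPM levels unscaled CPM. A list of drug response genes is not reported here as a whole.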

Additional observations from a re-analysis of the deposited data

How the results depend on the processing

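AQP3, AQP7, GPD1L and GPD2 kept direction and call in all alternatives of both single drug contrasts and of the averaged one. Over all alternatives the averaged log2 fold change ran from 1.90 to 1.995 for AQP3, 1.78 to 2.09 for AQP7, 0.39 to 0.48 for GPD1L and 0.15 to 0.20 for GPD2. Of 16 called results for single genes, 14 kept their call throughout, and the other 2 lost it in the combination against control when 1 control library was left out. Of 23 uncalled results followed in this way, 2 were called in some setting, both for GK5. Single genes were followed in both single drug contrasts, both averaged contrasts and the interaction. In the combination against control only the called genes were followed, and in the single ascites contrasts only the counts of called genes. With the replicate block, the count for bezafibrate against control and for the averaged drug contrast was 5 genes, GK5 included (edgeR adjusted p 0.0492 and 0.0318). Calls over all genes were then 2145 and 3453, beside 2199 and 3525 in the main fit. The calls of single genes in the other contrasts were kept. Same-numbered libraries did not deviate together (correlations from -0.135 to 0.0613 over 18 pairs), so the numbers are not treated as pairs.

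Among the results followed, sign changes were limited to 11 uncalled ones, and all but 3 of the 39 changes came from leaving out 1 library. Signs in the single ascites contrasts were not followed. Averaged ascites values then ran from -0.0475 to 0.0495 for AQP3, -0.041 to 0.0454 for GK, -0.0504 to 0.0325 for GK5 and -0.0353 to 0.013 for GPD2. GK was also 2e-04 with RLE factors, 9e-04 with no filter and 7e-04 with the 1 CPM filter. Interaction values ran from -0.0838 to 0.112 for AQP3, -0.0383 to 0.579 for AQP7, -0.0206 to 0.154 for GK, -0.0163 to 0.163 for GPD1L and -0.0569 to 0.0324 for GPD2. The combination against ascites gave -0.0025 to 0.161 for GK5 and -0.282 to 0.187 for GPD1.

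Over all genes, the 11 calls of ascites against control became 59 with no filter, 33 with only the groups compared, 4 at 0.01 and 3 to 24 without 1 library. The 16 of the combination against bezafibrate became 52, 7, 6 and 9 to 28, and the 35 of averaged ascites 113 with no filter, 19 at 0.01 and 21 to 118 without 1 library. The interaction had 0 calls, 36 with no filter, 1 with DESeq2, 1 with the replicate block and up to 3 without 1 library. The combination against ascites went from 2214 to 1475 at 0.01. With upper-quartile scaling the share of calls that were higher fell from 57.2% to 49% for bezafibrate against control, from 58.9% to 49.3% for the combination against ascites, from 53.2% to 43.3% for the averaged drug contrast and from 56.3% to 47.3% for the combination against control. The cause was not tested. GPD1 and AQP7 had the largest standard errors of the 7 tested genes, 0.238 and 0.165 for the averaged drug contrast.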
